A study of Mus musculus with 6 samples.

Results

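The epidermal growth factor (EGF) family was examined as 10 genes in cultured mouse bone marrow stromal cells that had or had not been fed apoptotic thymocytes. The genes were 6 ligands (Ereg, Hbegf, Areg, Btc, Tgfa and Nrg1), 3 receptors (Egfr, Erbb2 and Erbb3) and Errfi1, an inhibitor of the receptors, out of 53735 features in the count table. The family was picked on the measured rise of Ereg and Hbegf in fed cells, so the differences of all 10 genes between fed and control cells are given as a description, without p-values. All 10 symbols were found in the table, and 7 of them had enough reads to be fitted with the other genes.

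The cells were of wild-type genotype, had been sorted from marrow as negative for haematopoietic lineage markers, CD45 and CD31 and positive for CD51, and were cultured at 2% oxygen to passage 2 or 3. Fed wells (3 libraries) received 5000000 labelled apoptotic thymocytes and were kept for 24 h at 5% oxygen, after which cells carrying the label were sorted. Control wells (3 libraries) received no thymocytes and were also sorted. The labels give no oxygen level for the control wells over those 24 h, so feeding, uptake-based sorting and a change of oxygen cannot be told apart. They also give no strain, sex or age of the mice, and do not say whether the 3 libraries of each group stand for different mice or wells. The p-values below therefore measure only the spread between these libraries, which may be technical.

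EGF family ligands are made as membrane proteins and are released by proteases of the ADAM family. Epiregulin, HB-EGF, amphiregulin, betacellulin and TGF-alpha bind EGFR, and some of them also bind ERBB4, whereas neuregulins bind ERBB3 and ERBB4. ERBB2 has no known ligand of its own and signals as the partner of the other receptors, and ERBB3 has little kinase activity and depends on a partner. Active receptors signal through the RAS-ERK cascade, which induces feedback genes. In marrow and bone stroma, EGFR signalling is known for its roles in the growth of progenitors and in restraining osteoblast maturation.

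What makes these ligands a family is the EGF-like domain, in which 6 cysteines form 3 disulfide bonds. The coding sequence of that stretch is printed below for 5 ligands, with the cysteine codons in capitals. It sets Ereg, which was clearly expressed and higher in fed cells, beside those that were scarcely expressed or not higher. The stretch was found by the spacing of the cysteines (7, then 4 or 5, then 10 to 13, then 1, then 8 other codons between them) in transcripts of GENCODE release M21 on GRCm38. Each is read 5′ to 3′ on the coding strand.
Ereg: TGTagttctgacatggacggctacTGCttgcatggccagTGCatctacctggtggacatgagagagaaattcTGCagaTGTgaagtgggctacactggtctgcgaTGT
Areg: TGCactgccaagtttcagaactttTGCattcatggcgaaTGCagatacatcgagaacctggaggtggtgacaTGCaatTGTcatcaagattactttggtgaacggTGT
Btc: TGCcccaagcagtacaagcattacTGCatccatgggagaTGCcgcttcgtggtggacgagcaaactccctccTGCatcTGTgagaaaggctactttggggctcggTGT
Tgfa: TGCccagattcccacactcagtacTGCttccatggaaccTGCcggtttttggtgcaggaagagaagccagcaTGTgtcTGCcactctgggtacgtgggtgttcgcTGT
Nrg1: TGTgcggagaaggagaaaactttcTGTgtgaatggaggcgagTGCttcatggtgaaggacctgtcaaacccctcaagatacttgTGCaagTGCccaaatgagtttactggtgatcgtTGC

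The stretch was 108 bases long in Ereg, Areg, Btc and Tgfa, with the same spacing of cysteines in all 4. In Nrg1, the only neuregulin of the 5, it was 120 bases long, with 5 in place of 4 codons in the second gap and 13 in place of 10 in the third. In global alignments of the bases Ereg shared between 53.2% (with Nrg1) and 56.5% (with Tgfa) of alignment columns, gaps included, with the others. The closest pair was Btc and Tgfa at 62.0%. The alignments were not held to codons or to the cysteines, and that of Ereg and Tgfa ran to 115 columns. Close values, such as 56.2% for Ereg with Btc, are therefore not ordered. In each of the 5 genes the stretch lies in 2 coding exons. In Ereg it spans chr5:91088496-91089111 on the plus strand of GRCm38, in Areg chr5:91143614-91144364 on the plus strand, in Btc chr5:91362421-91366197 on the minus strand, in Tgfa chr6:86263200-86269960 on the plus strand and in Nrg1 chr8:31837698-31849398 on the minus strand.

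Ereg, Areg and Btc are neighbours on chromosome 5. The Ereg gene (91074622 to 91093646) ends 46.0 kb before Areg begins (91139599 to 91148432), and Btc (91357261 to 91402994, minus strand) lies 208.8 kb beyond Areg. A further ligand gene, Epgn, lies 39.4 kb before Ereg. Of these 4 neighbours only Ereg had more than 5 reads in any library. Its lowest count was 152, whereas Epgn had 0 to 2 reads, Areg 0 to 2 and Btc 1 to 5.

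The libraries held 19069074 to 22410047 counts, with similar depth in both groups. On the second principal component (14.4% of the variance) control replicate 3 stood at -16.5, away from control replicates 1 and 2 at 10.3 and 5.8. Fed replicates 1 to 3 stood at 7.7, -0.4 and -6.9, so the scores fell from replicate 1 to replicate 3 in both groups. Values without control replicate 3 are given where they differ. Of 13 markers of marrow stroma all were expressed, with Col1a1, Col1a2 and Col3a1 the most abundant, and 1 rose (Nt5e) and 8 fell in fed cells, where 20.5% of all genes tested rose and 19.0% fell. Itgav, which encodes CD51, stood at 289 ± 11.6 CPM in control and 277 ± 16.4 in fed cells (SD, n = 3). CPM here are counts per 1000000 of the TMM-normalised library total.

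Ereg, which encodes epiregulin, was about 2 times as abundant in fed cells. Its level was 8.39, 7.18 and 9.11 CPM in control replicates 1 to 3 and 17.2, 15.2 and 15.7 CPM in fed replicates 1 to 3. Every fed library lay well above every control library. The means were 8.23 ± 0.977 and 16.0 ± 1.08 CPM (SD, n = 3), and the log2 fold change was 0.96 ± 0.091 (SE). This was rank 72 from the highest among 13092 genes tested. Leaving out 1 library at a time gave values between 0.87 and 1.04. An antisense gene, Gm19610, overlaps an exon of Ereg in the annotation, and because the strand setting of the counting is not given, reads of that gene cannot be told apart from those of Ereg. In bulk RNA of sorted cells, more cells expressing a gene and more RNA per cell cannot be told apart either.

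Hbegf, which encodes heparin-binding EGF-like growth factor, was the most abundant ligand of the family per length and was also higher in fed cells. In CPM without a correction for length, its control libraries overlapped those of Nrg1, at means of 18.6 and 18.3 CPM. Hbegf stood at 19.1, 19.1 and 17.7 CPM in control libraries and at 38.0, 31.5 and 31.4 CPM in fed libraries. The groups were far apart, and fed replicate 1 was the highest. The log2 fold change was 0.85 ± 0.074 (SE), from a mean of 18.6 ± 0.801 to 33.7 ± 3.76 CPM (SD, n = 3), and it ranked 115 from the highest of the genes tested. Without fed replicate 1 it was 0.76, the lowest value with any library left out, and the highest was 0.90. Hbegf lies on chromosome 18 (36504927 to 36515805, minus strand).

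Tgfa, which encodes TGF-alpha, was barely expressed. Its raw counts were 7, 7 and 6 in control libraries and 11, 12 and 11 in fed libraries, so all fed libraries had more reads, but few. Summed over the group these are 20 reads (95% exact Poisson interval 12.2 to 30.9, counting error only) and 34 reads (23.5 to 47.5), and the intervals overlap. The log2 fold change of 0.69 ± 0.384 (SE) did not pass the call rule. Tgfa met the minimum of 0.465 CPM in 3 fed and 0 control libraries, so it was fitted only because of its fed libraries. With all genes of at least 1 read kept, the value was 0.70. The annotation places another gene, Gm43917, on the opposite strand over its exons.

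Areg, which encodes amphiregulin, and Btc, which encodes betacellulin, were at the limit of detection and were not fitted. Areg had 0, 2 and 0 reads in control and 1, 0 and 0 reads in fed libraries. Both sums, 2 and 1, are below the 3 reads that a count of 0 still allows, and no fold is given. Btc had 3, 2 and 3 reads in control and 2, 5 and 1 in fed libraries, with the same sum of 8 in each group (95% exact Poisson interval 3.45 to 15.8). At this depth a difference in either gene was not detectable.

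Nrg1, the gene of neuregulin 1, was clearly expressed and was not higher in fed cells. It stood at 18.8, 19.7 and 16.3 CPM in control and 16.0, 16.9 and 15.6 CPM in fed libraries. The groups overlap, because control replicate 3 lies below fed replicate 2. The log2 fold change was -0.18 ± 0.075 (SE) and did not pass. It passed as lower under 3 alternatives, among them without control replicate 3, at -0.25, and by upper quartile scaling, at -0.19. Its gene spans 31814551 to 32884029 on chromosome 8. The overlapping Gm26578, on the opposite strand, had at most 2 reads in any library.

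**Figure D1:**
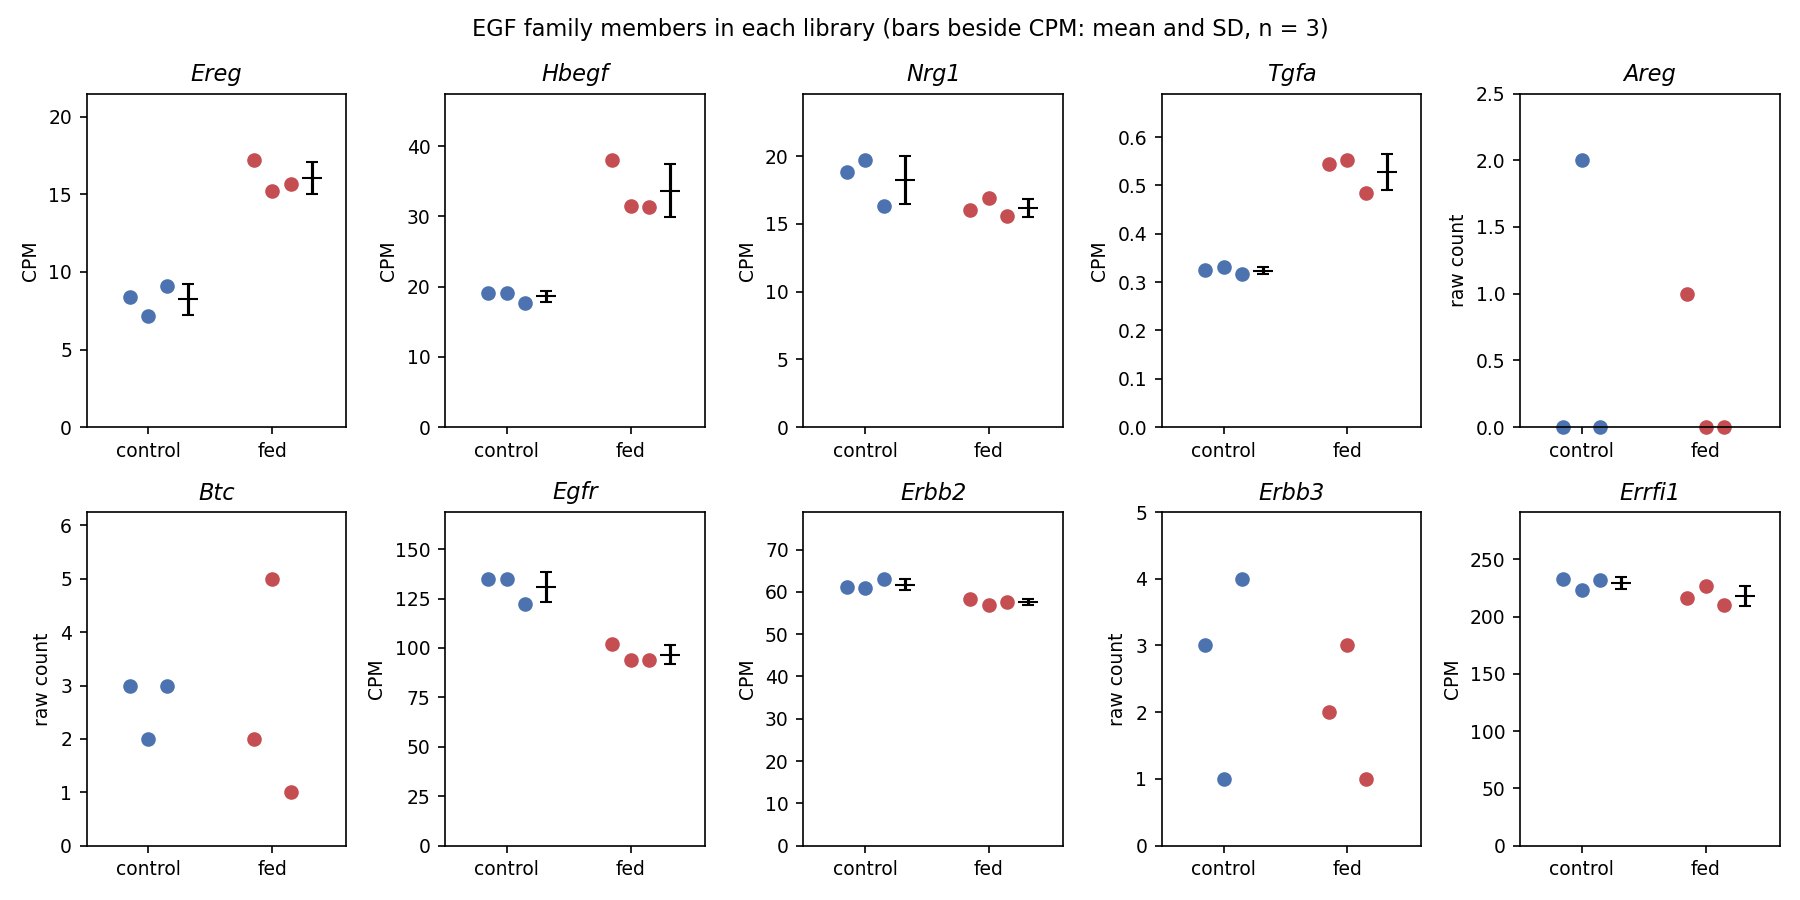
Level of each of the 10 genes in each library, as CPM for the 7 fitted genes and as raw counts for Areg, Btc and Erbb3. Points are libraries of the control (blue) and fed (red) groups, and bars beside the CPM points are the mean and SD of 3 libraries. The fed points of Ereg and Hbegf lie above all control points, those of Egfr lie below, and Areg never exceeds 2 reads.

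Egfr, the receptor of most of these ligands, was lower in fed cells. It stood at 135, 135 and 122 CPM in control libraries and at 102, 93.8 and 93.9 CPM in fed libraries. No fed library reached the lowest control library, which was control replicate 3. The means were 131 ± 7.43 and 96.4 ± 4.46 CPM (SD, n = 3). The log2 fold change of -0.44 ± 0.045 (SE) ranked 858 from the lowest of 13092 genes. Leaving out 1 library gave -0.49 to -0.42, with the largest difference without control replicate 3. Egfr lies on chromosome 11 (16752203 to 16918158, plus strand). The antisense gene Egfros overlaps none of its exons and had 1 to 9 reads.

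Erbb2, the receptor that acts as a partner, differed little. It stood at 61.2, 60.9 and 63.1 CPM in control and 58.3, 56.8 and 57.7 CPM in fed libraries. The fed libraries were all slightly lower and the groups did not overlap. The log2 fold change was -0.10 ± 0.042 (SE) and did not pass, although it did under 2 alternatives, of which upper quartile scaling gave -0.11. The gene (chromosome 11, 98412470 to 98437716) shares exon sequence with Mien1 on the opposite strand. Mien1 had 374 to 520 reads, against 1177 to 1320 reads for Erbb2.

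Erbb3, the neuregulin receptor with little kinase activity, was not fitted. It had 3, 1 and 4 reads in control and 2, 3 and 1 reads in fed libraries. The sums were 8 reads (95% exact Poisson interval 3.45 to 15.8) and 6 reads (2.20 to 13.1). Erbb4, the other neuregulin receptor, had 1 read in a single fed library and 0 elsewhere. Both receptors that bind neuregulins were thus at or near 0 in the same libraries that held Nrg1 (310 to 418 reads).

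Errfi1, which encodes the inhibitor MIG6 that binds the EGFR kinase and is itself induced by EGFR signalling, was the most abundant of the 10 genes per length. It stood at 233, 223 and 232 CPM in control libraries and at 216, 227 and 210 CPM in fed libraries. The groups overlap, because fed replicate 2 lies above control replicate 2. The log2 fold change was -0.07 ± 0.038 (SE) and did not pass. Errfi1 (chromosome 4, 150853919 to 150868892) thus differed by less than 0.1 on the log2 scale between the groups. Whether EGFR signalling differed between them was not tested.

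At an adjusted p under 0.05 in edgeR's quasi-likelihood test, 2 of the 7 fitted genes were called higher (Ereg and Hbegf) and 1 lower (Egfr). Over all 13092 genes 39.5% were called, 20.5% higher and 19.0% lower. Without overlap between the groups, 3 of the 7 were higher in fed cells (Ereg, Hbegf and Tgfa) and 2 lower (Egfr and Erbb2), where 49.1% of all genes did not overlap, 25.1% higher and 24.0% lower. Because the family was picked on this contrast, nothing is read from these counts. The calls of Ereg, Hbegf and Egfr were kept under all 15 alternatives, and 3 genes in place of 1 were lower under 2 of them, upper quartile scaling included. The genes lower in addition were Nrg1 and Erbb2. Without control replicate 3 the count was 2, with Nrg1 added.

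**Figure D2:**
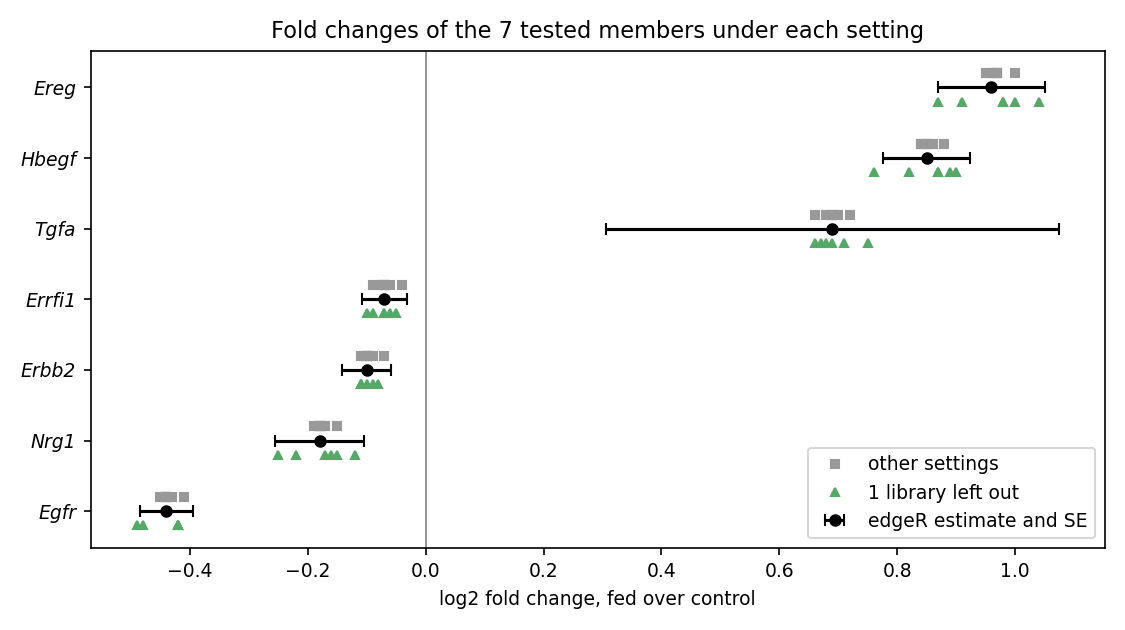
Log2 fold change, fed over control, of the 7 fitted genes. Black points and bars are the edgeR estimate and its SE, grey squares are other normalisations, filters and tools, and green triangles are fits with 1 library left out. With 1 library left out, Ereg lies between 0.87 and 1.04, Hbegf between 0.76 and 0.90 and Egfr between -0.49 and -0.42, while the bar of Tgfa is the widest.

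Levels were compared between genes per length, as CPM divided by the kilobases of the gene's merged exons. In control cells the order was Errfi1 (64.0 ± 1.41 CPM per kb, SD, n = 3), Erbb2 (11.8 ± 0.233), Egfr (11.5 ± 0.656), Hbegf (3.85 ± 0.166), Ereg (1.99 ± 0.237), Nrg1 (1.77 ± 0.170) and Tgfa (0.0499 ± 0.00112). Btc, Areg and Erbb3 followed, all under 0.03 and overlapping in their libraries. The libraries of Erbb2 and Egfr overlapped, as did those of Ereg and Nrg1, so neither pair could be ordered. Hbegf was 1.93 times the level of Ereg, and Nrg1 35.41 times that of Tgfa.

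In fed cells no gene whose libraries stood apart from its neighbours in control cells changed place, but the gaps had changed. Erbb2 now stood clear of Egfr, at 11.1 ± 0.148 against 8.51 ± 0.393 CPM per kb, a ratio of 1.30. Ereg, at 3.88 ± 0.262, was 2.49 times the level of Nrg1. Hbegf stood at 6.97 ± 0.778, and the ratio of Egfr to it was 1.22, against 3.00 in control cells. Compared with all genes tested and averaged over the 6 libraries, Errfi1 stood at percentile 94.5 of the levels per length, Erbb2 at 69.5, Egfr at 66.3, Hbegf at 49.7, Ereg at 34.4, Nrg1 at 23.8 and Tgfa at 0.4. The merged exons of Egfr are long (11326 bases, against 5210 for Erbb2) and hold several transcripts, so levels per length can be too low for such genes. Without the correction for length the order of Erbb2 and Egfr turned in both groups, with Egfr at 131 and Erbb2 at 61.7 CPM in control and at 96.4 and 57.6 CPM in fed cells. The libraries of Ereg and Nrg1 then overlapped in fed cells, at means of 16.0 and 16.2 CPM.

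**Figure D3:**
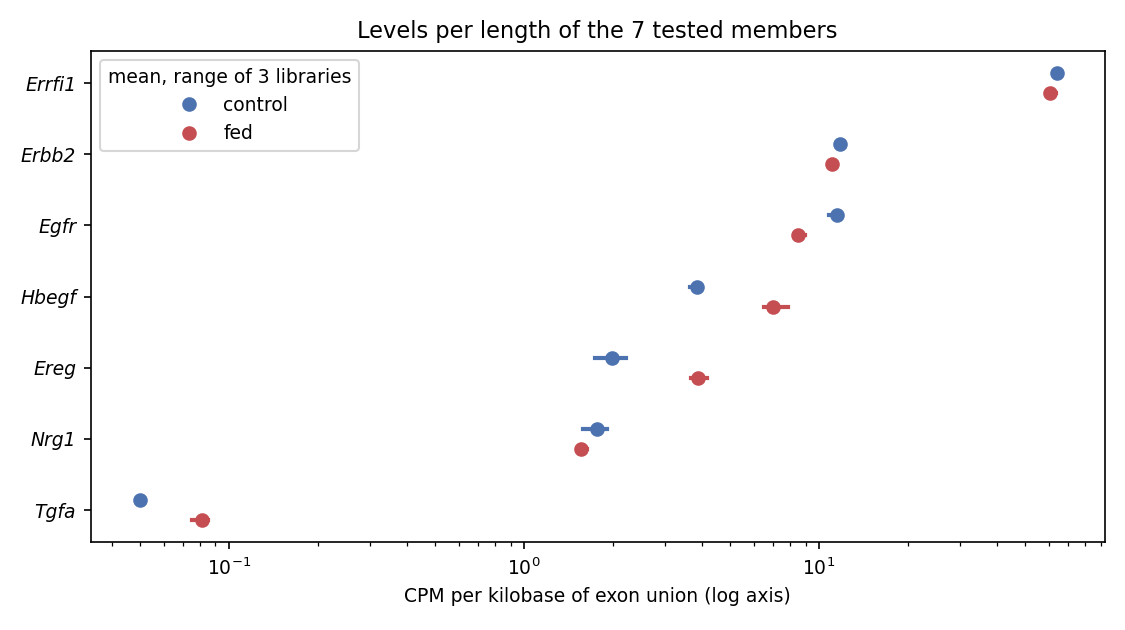
Level per length of the 7 fitted genes on a log axis, in CPM per kilobase of merged exons, with the mean (point) and range (line) of 3 libraries per group. Errfi1 is highest at 64.0 and 60.8, and Tgfa lies below 0.1. In fed cells Hbegf lies nearer to each of the receptors, while Erbb2 and Egfr stand apart.

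The balance of ligand to receptor transcripts followed from these levels and was similar in the libraries of a group. The ratio of Hbegf to Egfr per length was 0.330, 0.332 and 0.339 in control and 0.877, 0.788 and 0.785 in fed libraries. The ratio of Ereg to Egfr was 0.170, 0.146 and 0.205 in control and 0.466, 0.444 and 0.458 in fed libraries. Both ratios were more than 2 times as high in every fed library as in any control library. As Ereg and Hbegf were picked for their rise in this contrast, nothing is read from that separation.

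Among the 5 ligands that bind EGFR, Hbegf and Ereg made up nearly all transcripts. Their sum per length with Areg, Btc and Tgfa was 5.95 ± 0.113 CPM per kb in control and 11.0 ± 1.05 in fed cells (SD, n = 3). Hbegf held 64.8% ± 3.08 of it in control and 63.4% ± 0.981 in fed cells, and Ereg 33.5% ± 3.64 and 35.5% ± 1.15. The summed level was thus higher while the shares of both ligands overlapped between the groups. The ratio of Errfi1 to Egfr went from 5.56 ± 0.392 to 7.16 ± 0.469, with no overlap between groups (5.25 to 6.00 against 6.74 to 7.66).

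Other genes of the pathway were taken from 5 lists of 68 genes in all, of which 62 were tested. Of these, 20 were higher, 18 lower and 24 did not pass, beside the 20.5% and 19.0% of all genes given above. The remaining family genes, Egf, Epgn, Nrg2, Nrg3, Nrg4 and Erbb4, had at most 6 reads in any library and none was tested.

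Among 10 genes of ligand release and its inhibition, all tested, 6 fell and 3 rose, where 19.0% of all genes fell and 20.5% rose. The count pools proteases and their partners with an inhibitor, Timp3, so it gives no direction for ligand release. Their median was -0.18 on the log2 scale, against -0.01 over all genes. Adam17, the main protease that releases HB-EGF, epiregulin, amphiregulin and TGF-alpha, stood at 122, 114 and 111 CPM in control and at 93.1, 93.9 and 96.0 CPM in fed libraries. It fell by 0.29 on the log2 scale (SE 0.042, edgeR adjusted p = 1.04e-05). Adam10, which releases betacellulin and EGF, fell by 0.21 (adjusted p = 2.04e-04) and Adam9 by 0.40 (adjusted p = 2.12e-08) on the log2 scale. Timp3, an inhibitor of ADAM17 and other metalloproteases, stood at 1719, 1700 and 1738 CPM in control and at 2700, 2777 and 2634 CPM in fed libraries. It rose by 0.65 (SE 0.038, adjusted p = 1.10e-10). The others that fell were Adam12, Adam15 and Rhbdf2, and the others that rose were Adam19 and Rhbdf1, a relative of Rhbdf2. Rhbdf1 was the more abundant, at means of 62.2 CPM in control and 68.2 CPM in fed cells, against 4.89 and 3.17 CPM for Rhbdf2. The number lower was 6 with each library left out too, and the number higher was 2 to 4, with 4 without control replicate 3.

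Of 14 genes that act on the signalling or turnover of receptors, 1 rose, 5 fell and 8 did not pass, with a median of -0.05. With library totals only, 2 rose and 5 fell. The list pools genes without regard to the direction in which each acts on the receptors. Cblb, a ubiquitin ligase of the CBL family, stood at 72.3, 69.1 and 70.2 CPM in control and at 51.2, 50.9 and 47.8 CPM in fed libraries. It fell by 0.50 on the log2 scale (SE 0.044, edgeR adjusted p = 2.79e-08). Its relative Cbl, which tags active EGFR for degradation, had a log2 fold change of 0.10 and did not pass (adjusted p = 0.123). Ptpn1, a phosphatase that acts on EGFR, fell by 0.39 (adjusted p = 1.00e-07) and Lrig2 by 0.36 (adjusted p = 1.91e-04). Sh3kbp1, an adaptor that joins CBL to the endocytic machinery, was the gene that rose, by 0.26 (adjusted p = 3.22e-05), and without control replicate 2 the number that rose was 2.

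Adaptors and the RAS-ERK cascade went both ways, by 0.20 or less on the log2 scale except for Hras. Of 17 tested, 2 rose, 5 fell and 10 did not pass, with a median of -0.07. Those that rose were Hras, by 0.49 (edgeR adjusted p = 1.87e-07), and Araf, by 0.13 (adjusted p = 0.0188). The number was 1 by DESeq2 and without control replicate 2. The 5 that fell had log2 fold changes between -0.20 and -0.11 and included Plcg1 (adjusted p = 0.00110), Map2k1, which encodes the kinase MEK1 (adjusted p = 0.00382), and the adaptor Shc1 (adjusted p = 0.0143). Shc1 did not pass without control replicate 2 (0.0699), without fed replicate 2 (0.0745) or with no scaling factors (0.0819). This number was not stable. It was 2 with library totals only, where 3 rose, and also 2 when control replicate 2 was left out. Leaving out control replicate 1, or either of fed replicates 2 and 3, gave 3, as did DESeq2 and the fit of all genes with at least 1 read.

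Of 21 genes known to be induced by ERK signalling, 14 rose, 2 fell and 5 did not pass. Their median was 0.55 on the log2 scale against -0.01 over all genes, where 20.5% of genes rose. The number of the list that rose was 12 without control replicate 3 and 11 by DESeq2. It was 16 by limma-voom and in the fit that was not robust. The list was put together when the rise of Etv4 was already known, so its direction is not independent evidence. Ccnd1, the gene of cyclin D1, stood at 281, 303 and 309 CPM in control and at 471, 505 and 485 CPM in fed libraries. It rose by 0.71 on the log2 scale (SE 0.041, edgeR adjusted p = 1.02e-10). Phlda1 rose by 0.69 (adjusted p = 4.75e-08) and the ETS factor Etv5 by 0.55 (adjusted p = 1.85e-07). Etv4, of the same subfamily, had the highest fold of the list. It stood at 3.10, 4.49 and 4.90 CPM in control and at 10.8, 10.5 and 9.56 CPM in fed libraries, and rose by 1.31 (SE 0.131, adjusted p = 1.70e-07).

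The others that rose were the phosphatases Dusp4, Dusp5 and Dusp6, the feedback inhibitors Spry2, Spry4 and Spred2, Etv1, Epha2, Fosl1 and Myc. Spry1 and Epha4 fell. With library totals only, by DESeq2, or when control replicate 1 or either of fed replicates 1 and 2 was left out, 1 fell. Fos and Egr1, early targets of ERK, had the largest SEs of the list. Fos stood at 61.5, 28.2 and 25.9 CPM in control and 92.9, 55.9 and 53.9 CPM in fed libraries, with an adjusted p of 0.261. Replicate 1 was the highest within each group for both genes.

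**Figure D4:**
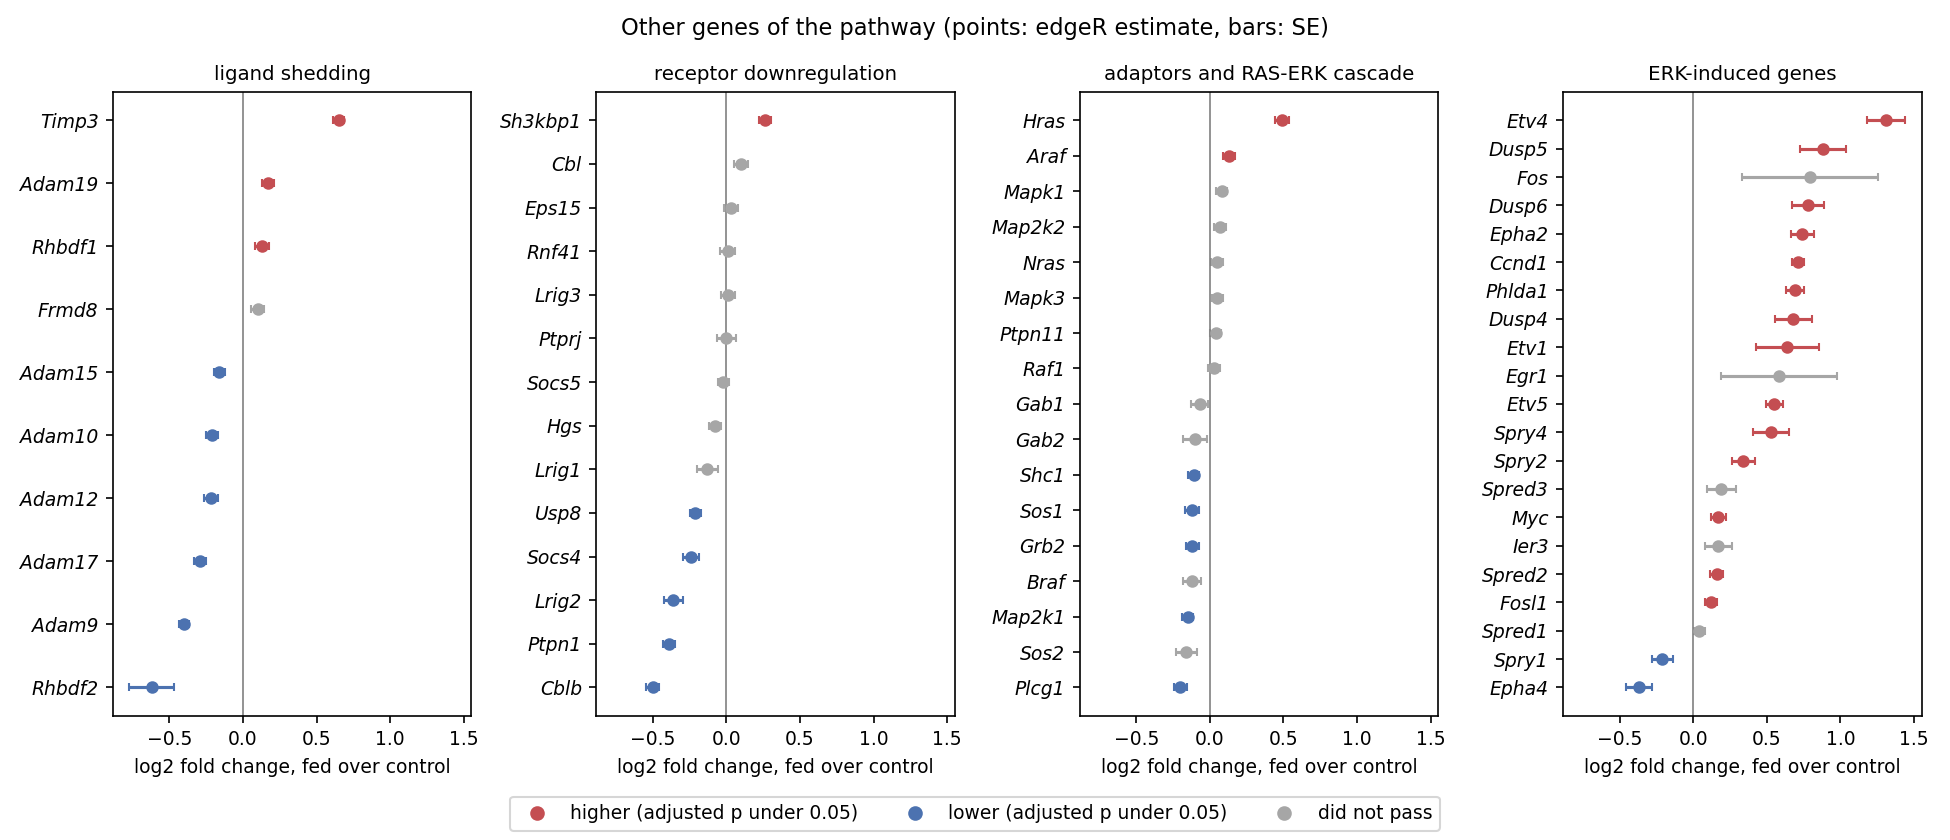
Log2 fold change, fed over control, of the 62 tested genes of the pathway outside the family, in 4 panels by role. Points are edgeR estimates with SE, in red where higher, blue where lower and grey where the adjusted p was not under 0.05. Most ERK-induced genes lie to the right of 0, up to Etv4 at 1.31, and 6 of the 10 ligand release genes lie to the left.

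The tested genes nearest to Ereg in pattern over the 6 libraries were Mcm10, the clone RP23-461C4.3, Lingo1 and Lrp8. Likeness was the root mean square difference between profiles of log2(CPM + 1) centred on their means, and was 0.092 to 0.100 for these 4. For Hbegf the nearest were Parvb, Cspg4, Col5a3 and Ankrd1, at 0.056 to 0.065. The nearest gene to Hbegf, Parvb, stood at 10.9 ± 0.512 CPM in control and 19.8 ± 1.99 in fed cells (SD, n = 3). Ereg and Hbegf were not each other's nearest genes, at a difference of 0.130. Hbegf was place 26 from Ereg and Ereg place 59 from Hbegf. As both genes were picked for their rise, any gene with a rise of that size and small spread comes near them.

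Markers of other cells were low but some moved with feeding. The 12 macrophage markers summed to 9.82 to 11.1 CPM in control and 15.1 to 17.0 CPM in fed libraries, and 1 of the 3 tested, Lyz2, was higher. Lyz2 stood at 3.32 ± 0.659 CPM in control and 7.47 ± 0.866 CPM in fed cells (SD, n = 3). Csf1r (5.78 ± 0.292 and 5.40 ± 0.778 CPM) and Cd68 (1.14 ± 0.187 and 1.30 ± 0.476 CPM) did not pass. C1qa, C1qb, C1qc, Adgre1 and Tyrobp had 0 reads in all control libraries and 2 to 10 reads in fed libraries, and Fcgr1 was at 0 in all 6. The 14 thymocyte markers summed to 3.02 to 3.42 and 3.08 to 4.62 CPM, with Cd3g, Rag2 and Ptcra at 0 in all libraries and Rag1 at 0 to 2 reads in control and 6 to 12 in fed libraries. Cd8a, Cd8b1 and Dntt had 0 reads in all control libraries and 1 to 5 reads in every fed library, and Ptprc had 0 to 1 and 2 to 5 reads. None of these 4 genes or Rag1 had enough reads to be tested. The 2 thymocyte markers tested, Tcf7 and Lck, did not pass, with log2 fold changes of 0.10 and -0.62. Themis had 1 read in each control library and 0 to 1 in fed libraries, and Cd3d had 0 to 1 and 0. The 9 endothelial markers summed to 6.28 to 6.69 and 4.51 to 5.95 CPM, with Cdh5, Tie1, Emcn and Cldn5 at 0, and Vwf fell (log2 fold change -0.72, edgeR adjusted p = 0.00702). The 8 epithelial markers summed to 24.7 to 27.9 and 28.6 to 31.1 CPM, nearly all from Krt19, which rose by 0.22 (adjusted p = 0.00742), with Krt5, Krt8 and Cldn4 at 0. The part of macrophage or thymocyte RNA in the higher Ereg and Hbegf of fed libraries was not tested.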

How the data were processed

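RNA of 3 control and 3 fed libraries was measured, from 200 ng of total RNA in a stranded kit that selects mRNA, per the labels' protocols. The authors deposited unnormalised whole-number counts, 1 row per gene symbol except for 2 rows that repeat a symbol. The submitters' processing notes list GRCm38 and the tools STAR 2.6.0c, Trimmomatic 0.36, featureCounts (Subread 1.6.1) and MultiQC 1.5. For the annotation release, the strand setting and multi-mapping reads, nothing is stated in the sources used here.

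Counts were analysed across all genes in R 4.3.3 with edgeR 4.0.16: filterByExpr, TMM scaling and the quasi-likelihood F-test (robust, without a replicate block), called at a Benjamini-Hochberg adjusted p under 0.05. SEs come from the F statistic. The script was checked on simulated counts. Coordinates and lengths come from GENCODE M21, where 28428 symbols matched once and held 97.0% of the counts. Pairs of libraries within a group differed by more than sampling noise (chi-square per degree of freedom 2.67 to 6.19), and each was kept. Counts limit the precision of genes with few reads, and intervals cover counting error only.

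The family and the lists were chosen with earlier results of these data known, and 1 gene of the lists was left out and is not reported here. All 10 members are named, with up to 4 called genes of each list that have the smallest adjusted p and at least 2 CPM, and the 4 genes nearest to Ereg and to Hbegf. Other genes with values, such as Cbl and Fos, were chosen after their values were seen. Alternatives were RLE, upper quartile and no scaling factors, 2 other filters, DESeq2 1.42.0, limma-voom (limma 3.58.1), a fit that was not robust, a replicate block, and each library left out.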

Additional observations from a re-analysis of the deposited data

How the results depend on the processing

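The number of family genes called higher was 2 under every alternative run and with each library left out. The number called lower was 1, against 3 by upper quartile scaling, 3 with the replicate number as a block, and 1 to 2 with 1 library left out. Among the pathway genes, 18 to 21 were called higher and 15 to 18 lower with 1 library left out, and all other alternatives stayed within 1.5 times the 20 and 18 reported. With CPM and no correction for length, Ereg was at place 6 in the control order in place of 5, changing places with Nrg1, and Egfr and Erbb2 also changed places. In fed cells Egfr and Erbb2 changed places too, and so did the means of Ereg and Nrg1, whose libraries then overlapped. The 16 pathway genes named by the rule kept their direction under every alternative that fitted them, and all but Shc1 kept their call. Shc1 (-0.11) missed the threshold when either replicate 2 was left out, and with no scaling factors (-0.08). The deviations of samples with the same number had weak correlations (0.092, 0.022 and 0.127, not all above 0.1). Control replicate 2 correlated slightly better with fed replicate 1 (0.03), and every other library correlated best with its own number. The libraries were therefore not treated as paired, but correlations this weak cannot settle whether libraries of the same number share a batch. Over all genes, 2989 were called higher and 2859 lower with the block, against 2682 and 2493 without it. With the block, Nrg1 (-0.18) and Erbb2 (-0.10) were added to the genes called lower, and 26 pathway genes were called higher and 20 lower, with 17 in place of 14 ERK-induced genes called higher. Depth limits Areg, Btc, Erbb3 and Tgfa, with at most 12 reads in any library.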
